A study of Mus musculus with 17 samples.

Results

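The response of wild-type (WT) mouse CD8+ T cells to antibodies against CD3 and CD28 together was taken from 5 of the series' 17 RNA sequencing libraries. They are the 2 libraries of WT cells given both antibodies (replicates 2 and 3), set against the 3 libraries of WT unstimulated cells. They were chosen by the genotype and stimulation in the labels. Among the 17 libraries no library is labelled as replicate 1 of the WT cells given both antibodies. All cells came from C57BL/6 mice. The study compared these cells with cells knocked out (KO) for Cblb, the gene of the E3 ubiquitin ligase Cbl-b, and its title concerns the overproduction of interferon-gamma by the KO cells. WT cells given both antibodies (genotype CBLB WT in the labels) received anti-CD3 + anti-CD28 for 12 h. WT unstimulated cells had the same genotype and received neither antibody. Where the response was compared further, 3 libraries of WT cells given anti-CD3 alone for 12 h, 3 of KO cells (CBLB Knockout) given both antibodies for 12 h and 3 of KO unstimulated cells were used. The unstimulated cells carry a day-0 name in the deposited tables and no label gives them time in culture, so stimulation and 12 h of culture cannot be told apart in what follows. Whether replicates are different animals is not stated in the labels. The p-values therefore refer to the spread among libraries, part of which may be technical. Except where stated, that spread was taken from all 17 libraries of the series.

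A CD8+ T cell recognises antigen through its T cell receptor, whose signal passes through the CD3 chains, and anti-CD3 antibody stands in for antigen. CD28 is the main costimulatory receptor of naive T cells, and its antibody adds the signal that antigen-presenting cells would give. Receptor signals reach the nucleus through NFAT, AP-1 and NF-kappaB. Within hours a resting cell turns on cytokines, chemokines and growth receptors, raises its biosynthesis and later divides. Inhibitory receptors and signalling brakes such as Cbl-b hold the response in check.

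The 5 libraries held 17951862 to 30931673 counts each and detected 20450 to 21382 genes, and the RNA came from cells of above 99% CD8+ purity per the labels' protocols. The 2 libraries of WT cells given both antibodies lay closer to each other (root mean square difference 0.17 on the log2 scale) than any 2 WT unstimulated libraries did (0.22 to 0.28). They lay 0.60 to 0.71 from the WT unstimulated libraries. The summed level of 8 CD8 T cell markers was 2216 to 2236 CPM (a gene's count relative to the scaled total of its library) in WT cells given both antibodies and 3685 to 3735 CPM in WT unstimulated cells. Markers of other cells summed to less. B cell markers summed to 261 to 273 CPM in WT cells given both antibodies against 308 to 365 CPM in WT unstimulated cells. Most of that sum was Ighm, with 263 and 251 CPM in the stimulated libraries against 335, 286 and 317 CPM in the unstimulated ones. No other B cell marker was above 16.6 CPM, and Pax5 had 0 counts in the stimulated cells. NK cell markers summed to 64.4 to 65.7 CPM in WT cells given both antibodies against 50.4 to 70.3 CPM in WT unstimulated cells. Myeloid, neutrophil, dendritic, CD4 T cell and erythroid or platelet markers each summed to no more than 8.42 CPM in WT cells given both antibodies and 16.1 CPM in WT unstimulated cells. Library composition also shifted with GC content. This GC trend was taken as the median log2 deviation of GC-rich genes (56% GC or more) less that of GC-poor ones (40% or less). The trend was 0.51 and 0.54 in WT cells given both antibodies, against -0.67 to -0.24 in WT unstimulated cells, so it moved with the groups. A fit with a GC correction per library was therefore made as well. For WT cells given both antibodies over WT unstimulated cells, its values are given where it ended or made a call for a gene named here, or moved the value of a called gene by over 1.5 times.

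Over all genes, edgeR's quasi-likelihood test with Benjamini-Hochberg adjustment (threshold 0.05), which gives every adjusted p below, called 5538 of 16246 genes tested, 34.1%. In WT cells given both antibodies 2890 genes (17.8%) were higher and 2648 (16.3%) lower than in WT unstimulated cells, and the median log2 fold change of all genes was -0.01. Changes of at least 2-fold were less even in direction, with 1276 genes (7.85%) higher and 625 (3.85%) lower, and at least 16-fold changes were called for 79 genes higher and 41 lower. The libraries of the groups did not overlap for 5399 genes that were higher (33.2%) and 5241 that were lower (32.3%) in WT cells given both antibodies. With the GC correction 2648 genes were higher and 2594 lower, and 824 and 615 of these changed by at least 2-fold. Without replicate 2 of the WT cells given both antibodies the counts were 1517 higher and 1392 lower, and without replicate 3 they were 1462 and 1250.

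**Figure D1:**
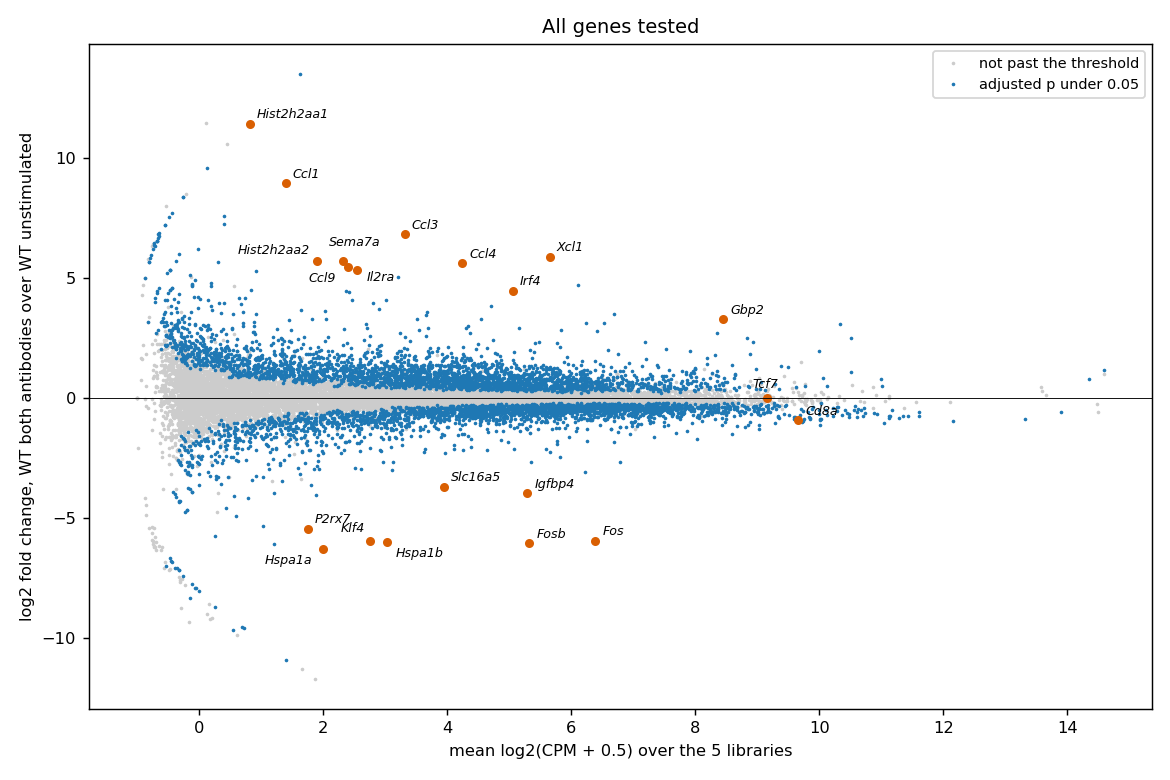
Log2 fold change of WT cells given both antibodies over WT unstimulated cells (y axis) against the mean log2(CPM + 0.5) over the 5 libraries (x axis), 1 point per gene tested, with genes past the adjusted p threshold in blue and named genes in orange. Chemokine genes, Irf4, Il2ra and Gbp2 lie far above the line, Fos, Fosb, Klf4 and the Hspa1 genes far below it, and Tcf7 on it.

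Counts of list members are to be read against the shares of all genes, 17.8% higher and 16.3% lower. Genes of secreted signals rose strongly. Of 17 T cell cytokine genes tested, 12 rose, all by at least 2-fold, and 2 fell, with a median log2 fold change of 1.78 beside -0.01 for all genes. Ifng (chr10:118441046-118445892, GRCm38), which encodes interferon-gamma, had 69.5 and 58.6 CPM in WT cells given both antibodies, against 6.64, 8.93 and 10.2 CPM in WT unstimulated cells. Both stimulated libraries lay far above all 3 unstimulated ones. In bulk RNA, more cells carrying a transcript and more of it per cell cannot be told apart. The log2 fold change was 2.91 ± 0.35 (SE, adjusted p = 3.45e-05). Tnf, the gene of tumour necrosis factor, had 44.8 and 44.7 CPM in WT cells given both antibodies, against 15.3, 23.2 and 20.4 CPM in WT unstimulated cells (1.19 ± 0.19, adjusted p = 2.43e-04). Lta, encoding lymphotoxin alpha, had 15.2 and 14.1 CPM in WT cells given both antibodies, against 3.99, 4.49 and 4.30 CPM in WT unstimulated cells (1.78 ± 0.28, adjusted p = 2.09e-04). The groups did not overlap for either gene, and the log2 fold change of Tnf was smaller than that of Ifng. Tnfsf14, which encodes the costimulatory ligand LIGHT, had 38.1 and 31.7 CPM in WT cells given both antibodies, against 4.67, 7.41 and 5.88 CPM in WT unstimulated cells (2.55 ± 0.17, adjusted p = 8.17e-09).

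Il2, the gene of the T cell growth factor interleukin-2, was low in stimulated cells and near 0 in unstimulated ones. It had 3.12 and 2.45 CPM in WT cells given both antibodies (110 counts in all) against 0.0324, 0.380 and 0.113 CPM in WT unstimulated cells (13 counts in all). Its log2 fold change was 3.96 ± 0.72 (adjusted p = 8.92e-04), and the groups did not overlap. Csf2, encoding the growth factor GM-CSF, had 1.09 and 0.441 CPM in WT cells given both antibodies, against 0.324, 0.228 and 0.0566 CPM in WT unstimulated cells (1.76 ± 0.61, adjusted p = 0.0339). The Csf2 call rested on single libraries. It was lost without replicate 2 of the WT cells given both antibodies (0.97, adjusted p = 0.423), without WT unstimulated replicate 2 (adjusted p = 0.0714) and without WT unstimulated replicate 3 (adjusted p = 0.0861). The 2 members that fell were Tnfsf10, encoding the death ligand TRAIL, and Osm, encoding oncostatin M. Tnfsf10 had 27.1 and 29.1 CPM in WT cells given both antibodies, against 55.7, 57.7 and 55.6 CPM in WT unstimulated cells (-1.0 ± 0.12, adjusted p = 7.38e-06). Osm changed by -0.66 ± 0.18 (adjusted p = 0.0109), a call that was lost without replicate 2 of the WT cells given both antibodies (adjusted p = 0.110).

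Chemokine genes rose by large factors. Of the list, 6 of 7 tested rose, with a median log2 fold change of 5.60, and none fell. Xcl1, whose product attracts cross-presenting dendritic cells, had 604 and 524 CPM in WT cells given both antibodies, against 9.08, 10.8 and 8.94 CPM in WT unstimulated cells (5.87 ± 0.19, adjusted p = 1.43e-12). Ccl4, which encodes a chemokine that attracts macrophages and T cells, had 194 and 166 CPM in WT cells given both antibodies, against 3.24, 4.14 and 3.79 CPM in WT unstimulated cells (5.60 ± 0.18, adjusted p = 1.43e-12). Ccl3, encoding a related inflammatory chemokine, had 157 and 119 CPM in WT cells given both antibodies, against 1.13, 1.37 and 1.19 CPM in WT unstimulated cells (6.80 ± 0.32, adjusted p = 7.29e-10). For each of these genes replicate 2 of the stimulated cells lay above replicate 3, and both lay far above every unstimulated library. Ccl1, encoding the ligand of CCR8, had 36.0 and 20.7 CPM in WT cells given both antibodies, against 0.0324, 0.114 and 0 CPM in WT unstimulated cells (4 counts in all). Its log2 fold change of 8.94 ± 0.43 rests on very few unstimulated reads. Ccl9 rose by 5.43 ± 0.49 (adjusted p = 3.53e-06). Ccl5, an abundant chemokine of memory CD8+ T cells, was the member not called. It had 50.4 and 52.8 CPM in WT cells given both antibodies and 43.4, 58.4 and 50.4 CPM in WT unstimulated cells (0.03 ± 0.18, adjusted p = 0.927).

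**Figure D2:**
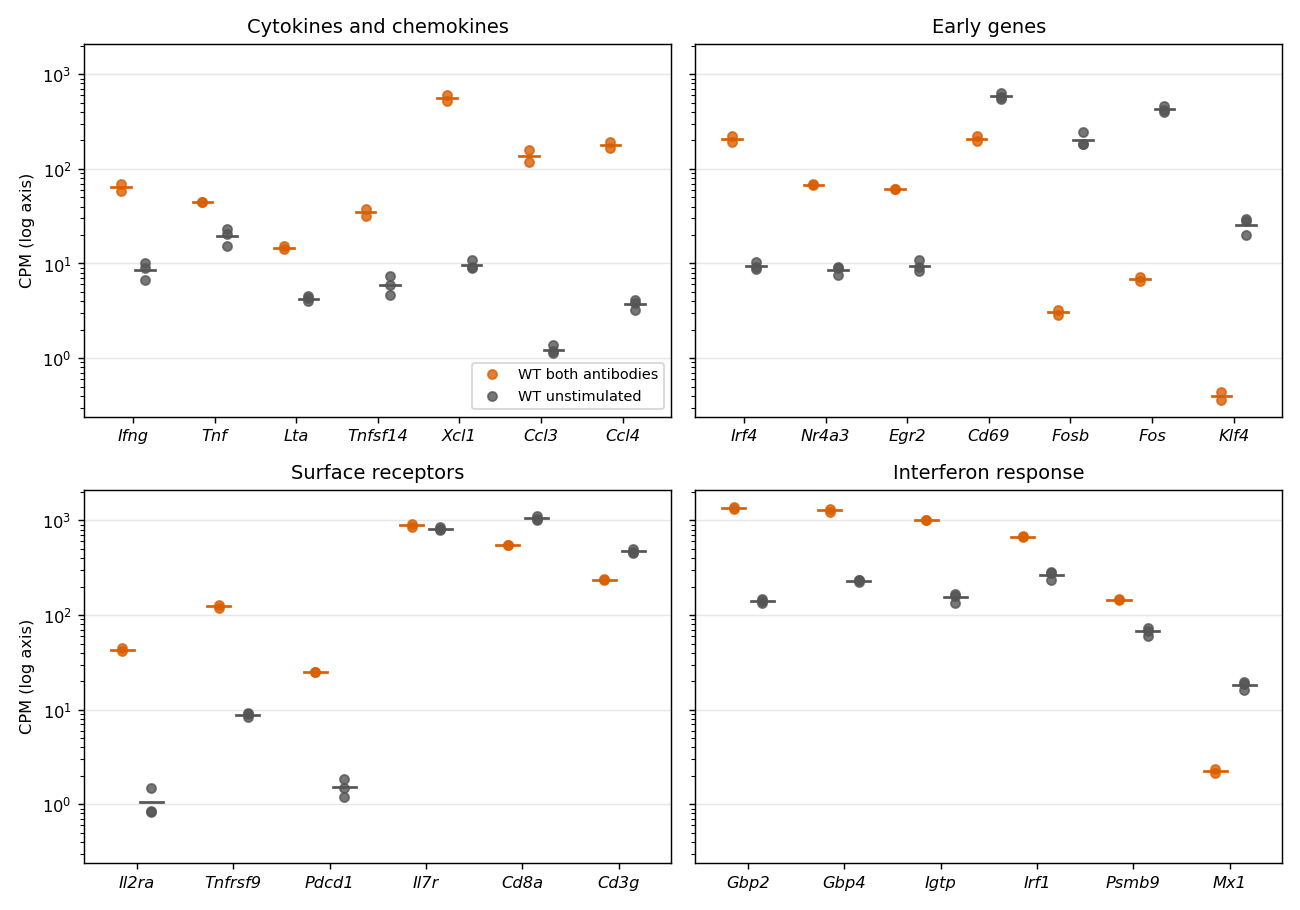
Levels (CPM, log axis) of key genes in each library, WT cells given both antibodies left of WT unstimulated cells, 1 point per library. Short lines are group means. Ifng, Ccl3, Il2ra and Irf4 are higher in every stimulated library, Fos, Fosb, Klf4 and Cd69 are lower, and the groups lie close together for Il7r.

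Of 21 cytokine receptor genes 6 rose and 4 fell, with a median of 0.00. Il2ra, encoding the alpha chain that makes the interleukin-2 receptor high-affinity, had 41.3 and 45.2 CPM in WT cells given both antibodies, against 1.49, 0.836 and 0.849 CPM in WT unstimulated cells (5.30 ± 0.29, adjusted p = 2.67e-09). Il12rb2, the signalling chain of the interleukin-12 receptor, had 15.2 and 14.7 CPM in WT cells given both antibodies, against 1.49, 1.22 and 0.905 CPM in WT unstimulated cells (3.59 ± 0.24, adjusted p = 7.75e-09). In both genes the groups lay well apart. The other chains of the interleukin-2 receptor, Il2rb (-0.18, adjusted p = 0.308, but called with GC corrected for, at -0.42 and adjusted p = 6.27e-04) and Il2rg (-0.14, adjusted p = 0.176), and the interleukin-7 receptor gene Il7r (0.11, adjusted p = 0.479) were not called. With the GC correction Il7r was called higher (0.38, adjusted p = 0.00327). Il18rap, an interleukin-18 receptor chain, fell by 0.91 (SE 0.16, adjusted p = 3.74e-04), and Ifnar2, a chain of the type I interferon receptor, fell by 0.53 (SE 0.10, adjusted p = 0.00103).

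Among 14 costimulatory receptor genes 7 rose and 2 fell (median 0.43, and 0.24 with the GC correction). Tnfrsf9, which encodes 4-1BB, had 127 and 119.8 CPM in WT cells given both antibodies, against 9.17, 8.90 and 8.32 CPM in WT unstimulated cells (3.81 ± 0.14, adjusted p = 3.42e-12). Slamf1, a self-ligand receptor of lymphocytes, rose by 2.04 ± 0.18 (adjusted p = 5.19e-07). Tnfrsf4, encoding OX40, rose by 1.18 ± 0.25 (adjusted p = 0.00178) at levels of 3.48 and 4.65 CPM in WT cells given both antibodies. Cd28, the gene of the receptor that one of the antibodies engages, had 197 and 207 CPM in WT cells given both antibodies and 219, 221 and 230.3 CPM in WT unstimulated cells. It was not called (-0.15 ± 0.13, adjusted p = 0.404; 0.11, adjusted p = 0.287 with the GC correction). Icos, another costimulatory receptor gene, was not called either (0.04 ± 0.14, adjusted p = 0.867), but was with the GC correction (0.28, adjusted p = 0.0166). The members that fell were Cd226, an adhesion receptor that competes with TIGIT for ligands (-1.02 ± 0.12, adjusted p = 1.3e-05), and Cd2, an adhesion receptor of T cells (-0.75 ± 0.09, adjusted p = 7.83e-06).

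Inhibitory receptor genes moved both ways, with 7 of 18 higher (4 without replicate 2 of the WT cells given both antibodies), 6 lower and a median of 0.22. Pdcd1, encoding PD-1, had 25 and 24.8 CPM in WT cells given both antibodies, against 1.20, 1.48 and 1.87 CPM in WT unstimulated cells (4.07 ± 0.19, adjusted p = 1.01e-10). Cd274, encoding the PD-1 ligand PD-L1, had 259 and 277 CPM in WT cells given both antibodies, against 36.4, 39.9 and 41.7 CPM in WT unstimulated cells (2.77 ± 0.17, adjusted p = 2.67e-09). Receptor and ligand genes both rose, with narrow spread inside each group. Lag3, whose product binds MHC class II, rose by 2.73 ± 0.28 (adjusted p = 2.44e-06) at 4.52 and 3.04 CPM in WT cells given both antibodies. Ctla4, the high-affinity competitor of CD28 for its ligands, was not called (0.22 ± 0.18, adjusted p = 0.380) and was called with the GC correction (0.47, adjusted p = 0.0275). Btla, an inhibitory receptor of resting lymphocytes, fell by 1.31 (SE 0.17, adjusted p = 3.10e-05), and Cd96, an inhibitory receptor for nectin-like ligands, fell by 1.17 (SE 0.14, adjusted p = 8.24e-06).

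Genes of the early antigen receptor programme moved both ways. Of 23 genes tested, 11 were higher, 6 were lower, and the median was 0.19 (-0.35 with the GC correction). Irf4, a transcription factor whose level follows receptor signal strength, had 192 and 219.8 CPM in WT cells given both antibodies, against 10.3, 8.71 and 9.22 CPM in WT unstimulated cells (4.45 ± 0.16, adjusted p = 3.42e-12). Irf8, a related factor, had 45.3 and 38.9 CPM in WT cells given both antibodies, against 5.15, 4.14 and 3.51 CPM in WT unstimulated cells (3.28 ± 0.19, adjusted p = 1.37e-09). Egr2, a zinc finger factor linked to NFAT signalling, had 61.4 and 61.0 CPM in WT cells given both antibodies, against 9.08, 8.40 and 11 CPM in WT unstimulated cells (2.70 ± 0.13, adjusted p = 1.07e-10). For all 3 genes the lowest stimulated library was several times the highest unstimulated one. The orphan nuclear receptor genes Nr4a3 (3.00 ± 0.17, adjusted p = 1.67e-09) and Nr4a1 (1.67 ± 0.20, adjusted p = 1.82e-05) rose as well. Batf, a partner of IRF4 on AP-1 sites, was not called (0.14 ± 0.20, adjusted p = 0.622), and turned to a called fall with the GC correction (-0.35, adjusted p = 0.0455).

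The AP-1 genes Fos and Fosb were among the lowest of all named genes relative to unstimulated cells. Fos had 7.17 and 6.51 CPM in WT cells given both antibodies, against 419.5, 394 and 466 CPM in WT unstimulated cells (-5.96 ± 0.22, adjusted p = 3.42e-12). Fosb had 2.86 and 3.23 CPM in WT cells given both antibodies, against 184, 183 and 244 CPM in WT unstimulated cells (-6.06 ± 0.33, adjusted p = 2.38e-09). Klf4, encoding a zinc finger factor that restrains T cell proliferation, had 0.363 and 0.441 CPM in WT cells given both antibodies, against 29.3, 19.9 and 27.9 CPM in WT unstimulated cells (-5.98 ± 0.33, adjusted p = 9.73e-10). All 3 genes were high in every unstimulated library and near the bottom of the scale in both stimulated ones. Cd69, the gene of the early activation marker that retains cells in lymphoid tissue, was lower too. It had 196 and 220 CPM in WT cells given both antibodies, against 638, 571 and 552 CPM in WT unstimulated cells (-1.5 ± 0.23, adjusted p = 2.29e-04). Other genes at the lower end were P2rx7, an ATP-gated channel (-5.46 ± 0.67, adjusted p = 1.77e-05), Igfbp4, a binding protein of insulin-like growth factors (-3.99 ± 0.19, adjusted p = 1.07e-10), and Slc16a5, a transporter of the monocarboxylate family (-3.71 ± 0.16, adjusted p = 2.98e-11). Sema7a, a membrane-bound semaphorin, stood at the upper end beside the chemokines, with 42.0 and 37.1 CPM in WT cells given both antibodies, against 0.454, 1.03 and 0.849 CPM in WT unstimulated cells (5.70 ± 0.24, adjusted p = 1.80e-11).

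Promoter sequences (250 bases before to 50 after the start, RefSeq, GRCm38.p6) were found for 18 of the 24 early genes listed. None of these 18 held the AP-1 motif TGANTCA or the cyclic AMP response element TGACGTCA, beside 6.06% and 3.58% of 10096 genes tested. Only Ier3, encoding an early response protein linked to survival, held the NF-kappaB motif GGANTTTCC on either strand among them, 5.56% of the promoters found beside 1.59% of 10096 genes tested. Its promoter (chr17:35821463-35821762, plus strand) is shown because it is the member chosen by the rule for this list, with the match, 139 bases before the start, in capitals.
Ier3 promoter: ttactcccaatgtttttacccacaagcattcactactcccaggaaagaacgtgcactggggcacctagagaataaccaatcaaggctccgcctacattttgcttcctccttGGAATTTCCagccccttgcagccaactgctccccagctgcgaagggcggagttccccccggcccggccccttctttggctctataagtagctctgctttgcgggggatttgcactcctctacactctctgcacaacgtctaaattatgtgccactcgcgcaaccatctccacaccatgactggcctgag
Ier3 had 6.28 and 4.70 CPM in WT cells given both antibodies, against 3.01, 3.57 and 2.77 CPM in WT unstimulated cells (0.81 ± 0.25, adjusted p = 0.0185). The groups did not overlap. The Ier3 call was lost with the GC correction (0.52, adjusted p = 0.0872). It was also lost with the replicate number as a block (0.80, adjusted p = 0.0523) and without replicate 2 of the WT cells given both antibodies (adjusted p = 0.215), WT unstimulated replicate 1 (adjusted p = 0.0571) or WT unstimulated replicate 3 (adjusted p = 0.0526). A motif match is a description of letters, not of binding.

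The interferon-gamma response and antigen presentation genes rose almost throughout. Of 24 tested, 21 were higher, 17 of them by at least 2-fold, none was lower, and the median was 1.49. After GC correction 20 were higher, 14 of them by at least 2-fold (median 1.23). Gbp2, a guanylate-binding protein that attacks the vacuoles of intracellular pathogens, had 1331 and 1382 CPM in WT cells given both antibodies, against 133, 141 and 148 CPM in WT unstimulated cells (3.27 ± 0.16, adjusted p = 1.62e-10). Gbp3, of the same family, rose by 2.28 ± 0.14 (adjusted p = 2.37e-09). The called members of the list ranged from 0.41 for Psmb8, an immunoproteasome subunit, to 3.47 for Iigp1, an immunity-related GTPase. Those ends of the range were named after their values were seen. Igtp, an immunity-related GTPase, had 1007 and 1005 CPM in WT cells given both antibodies, against 135, 167 and 160.1 CPM in WT unstimulated cells (2.71 ± 0.17, adjusted p = 4.73e-09). Gbp2 and Igtp were about as high in both stimulated libraries and low in all 3 unstimulated ones. The genes Ciita, B2m and H2-K1, for the MHC class II transactivator, beta-2 microglobulin and a class I heavy chain, were not called.

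Of 24 genes in this list 16 had a promoter in the RefSeq table, and 6 of these (37.5%) held the letters TTCNNNGAA of a gamma-activated site, the motif known from promoters that interferon-gamma switches on, beside 8.35% of 10096 genes tested. The motif reads the same on both strands. It was held by 10.3% of the promoters of genes higher by at least 2-fold and by 10.7% of those lower by at least 2-fold. This motif and gene were chosen after the results were seen. The promoter of Igtp (chr11:58199306-58199605, plus strand), shown as a strongly raised member of a list that rose almost throughout, holds it 45 bases before the start, in capitals.
Igtp promoter: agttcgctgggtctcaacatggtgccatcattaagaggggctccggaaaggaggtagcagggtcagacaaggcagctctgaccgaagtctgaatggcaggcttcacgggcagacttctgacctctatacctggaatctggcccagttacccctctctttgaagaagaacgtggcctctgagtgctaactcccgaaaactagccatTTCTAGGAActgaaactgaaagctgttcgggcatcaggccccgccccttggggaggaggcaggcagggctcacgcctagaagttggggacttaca
The list of 25 type I interferon response genes did not move as 1 block. In it 10 were higher (5 without replicate 3 of the WT cells given both antibodies, 6 without replicate 2 and 6 without WT unstimulated replicate 1), 6 were lower and the median was -0.02. Mx1, a gene driven by type I interferon, had 2.34 and 2.15 CPM in WT cells given both antibodies. In WT unstimulated cells it had 16, 19.7 and 18.7 CPM (-3.01 ± 0.27, adjusted p = 4.92e-07). Cmpk2, encoding a mitochondrial nucleotide kinase, also fell (-1.61 ± 0.28, adjusted p = 4.70e-04), while Zbp1, a sensor of Z-form nucleic acid, rose (1.05 ± 0.11, adjusted p = 2.16e-06).

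Genes of the antigen receptor complex and its proximal signalling leaned down, with 9 of 22 lower, 1 higher and a median of -0.18 (13 lower, none higher and -0.32 with the GC correction). Cd8a, the coreceptor chain, had 549.8 and 548 CPM in WT cells given both antibodies, against 1103, 1010.0 and 1039.9 CPM in WT unstimulated cells (-0.94 ± 0.09, adjusted p = 1.04e-06). Cd3g, a CD3 chain, had 238 and 234 CPM in WT cells given both antibodies, against 499, 467 and 454 CPM in WT unstimulated cells (-1.01 ± 0.08, adjusted p = 1.95e-07). Both were lower in each stimulated library than in any unstimulated one. Zap70, the kinase recruited to the phosphorylated receptor, was the member that rose (0.81 ± 0.20, adjusted p = 0.00522), and with the GC correction its value was 0.02 (adjusted p = 0.868).

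Brakes of receptor signalling were mixed. Of 26 genes, 3 rose (6 without KO both-antibody replicate 1 or without KO both-antibody replicate 3) and the median was -0.10. In the same list 10 fell (4 without replicate 2 of the WT cells given both antibodies and 5 without replicate 3). Spry1, an inhibitor of Ras-MAP kinase signalling, had 31.4 and 31.9 CPM in WT cells given both antibodies, against 2.20, 1.90 and 1.98 CPM in WT unstimulated cells (3.95 ± 0.14, adjusted p = 3.42e-12). Dusp4, a MAP kinase phosphatase, rose by 2.18 ± 0.19 (adjusted p = 3.39e-07). Cblb (chr16:52031225-52208048, GRCm38), the gene knocked out in the study's KO cells, had 178 and 179 CPM in WT cells given both antibodies, against 159.7, 139.5 and 147 CPM in WT unstimulated cells (0.26 ± 0.09, adjusted p = 0.0327). That small difference was past the threshold in the full set of libraries, and was 0.42 with the GC correction (adjusted p = 1.16e-04). It was not past it with no filter on low counts (0.28, adjusted p = 0.0892), without either stimulated library (adjusted p = 0.145 without replicate 2, 0.149 without replicate 3) or without WT unstimulated replicate 2 (0.108) or replicate 3 (0.0729). Pag1, the adaptor that brings the inhibitory kinase CSK to the membrane (-0.96 ± 0.09, adjusted p = 1.14e-06), and Sit1, a transmembrane adaptor that dampens receptor signalling (-1.42 ± 0.16, adjusted p = 6.38e-06), had the smallest adjusted p of the members that fell.

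NF-kappaB genes rose as a group, 15 of 19 higher and 2 lower, with a median of 0.93 (14 higher, 1 lower and 0.53 with the GC correction). Nfkb2, encoding the p100 precursor of the alternative pathway, had 106 and 111 CPM in WT cells given both antibodies, against 19.2, 22 and 26.0 CPM in WT unstimulated cells (2.28 ± 0.24, adjusted p = 5.26e-06; 1.5 with the GC correction). Relb, the partner subunit, rose by 1.80 ± 0.18 (adjusted p = 2.01e-06). The members that fell were Tnfaip3, encoding A20, which shuts the pathway down, and Birc2. Tnfaip3 had 126 and 131 CPM in WT cells given both antibodies, against 389.9, 369 and 517 CPM in WT unstimulated cells (-1.73 ± 0.14, adjusted p = 1.08e-07). Birc2 encodes the ubiquitin ligase cIAP1 (-0.38 ± 0.09, adjusted p = 0.00460) and was not called with the GC correction (-0.14, adjusted p = 0.109). In the Bcl-2 family 8 of 14 rose and 1 fell (median 0.42). Corrected for GC, 6 rose and 1 fell (median 0.16). Bcl2, the survival gene of resting T cells, had 143 and 121 CPM in WT cells given both antibodies, against 329, 387 and 317 CPM in WT unstimulated cells (-1.38 ± 0.15, adjusted p = 3.05e-06). Bcl2l1, encoding the survival protein Bcl-xL, rose by 1.12 ± 0.16 (adjusted p = 6.18e-05; 0.70 with the GC correction). Bcl2a1d (2.85 ± 0.26, adjusted p = 5.03e-07) and Bcl2a1b (1.65 ± 0.20, adjusted p = 1.23e-05) rose too. These near-identical copies of the A1 survival gene share reads, so their separate values are uncertain.

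Genes targeted by interleukin-2 and STAT5 were 7 higher and 2 lower (1 without either stimulated library) of 14. The median was 0.77, and 0.20 with the GC correction. Socs1, a feedback inhibitor of cytokine receptors, had 71.1 and 71.9 CPM in WT cells given both antibodies, against 12.7, 15.9 and 11.5 CPM in WT unstimulated cells (2.41 ± 0.16, adjusted p = 7.37e-09). Tfrc, the transferrin receptor that imports iron, rose by 0.72 ± 0.23 (adjusted p = 0.0268). That call was lost when any 1 of the 5 libraries was left out (adjusted p = 0.0554 to 0.117). Ccnd2, encoding cyclin D2, fell by 0.39 (SE 0.11, adjusted p = 0.0120; -0.25 with the GC correction), a call lost without either stimulated library (adjusted p = 0.0843 without replicate 2 and 0.0689 without replicate 3).

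Genes that mark naive and quiescent T cells were 4 higher and 8 lower of 22 (median -0.11), and 7 higher and 9 lower with the GC correction. Several well-known members were not called. Tcf7, encoding the stemness factor TCF-1, had 561 and 563 CPM in WT cells given both antibodies and 591, 572 and 553 CPM in WT unstimulated cells (-0.03 ± 0.12, adjusted p = 0.883). Ccr7, the homing chemokine receptor (-0.13 ± 0.14, adjusted p = 0.501), S1pr1, the exit receptor (-0.08 ± 0.09, adjusted p = 0.513), and Klf2, the factor that drives S1pr1 (0.21 ± 0.14, adjusted p = 0.264), were not called. A p that misses the threshold does not show equal levels. The GC correction called Ccr7 lower (-0.34, adjusted p = 0.00199) and Klf2 lower (-0.80, adjusted p = 0.00622). The Klf2 value has the opposite sign without it, and with only the groups compared Klf2 was called higher (0.23, adjusted p = 0.0431). Bach2, a repressor that holds back effector differentiation, rose from this list. It had 166 and 184 CPM in WT cells given both antibodies, against 82.2, 79.4 and 82.3 CPM in WT unstimulated cells (1.11 ± 0.10, adjusted p = 8.98e-07). Slfn2, a quiescence factor, rose as well (0.60 ± 0.10, adjusted p = 2.36e-04). Btg1, an antiproliferative mRNA decay factor (-0.63 ± 0.10, adjusted p = 1.44e-04; -0.38 with the GC correction), and Ets1 (-0.48 ± 0.08, adjusted p = 2.30e-04), a transcription factor of resting lymphocytes, fell. Homing and adhesion genes were 1 higher and 8 lower of 18 (5 lower without replicate 3 of the WT cells given both antibodies, and 2 higher and 10 lower with the GC correction; median -0.40). Ccr9, a gut homing receptor, fell by 1.5 (SE 0.13, adjusted p = 4.92e-07) and Gpr183, an oxysterol receptor that positions lymphocytes, by 0.73 (SE 0.10, adjusted p = 2.99e-05). S1pr4, another sphingosine 1-phosphate receptor, rose by 1.54 (SE 0.35, adjusted p = 0.00509; 0.78 with the GC correction). Cd44, an adhesion receptor used as a memory marker, fell by 0.59 (SE 0.17, adjusted p = 0.0126; -0.37 with the GC correction), but not past the threshold without replicate 3 of the WT cells given both antibodies (-0.46, adjusted p = 0.15).

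Effector genes were not induced as a group. Of 14 cytotoxic granule genes 5 were higher (2 without replicate 2 of the WT cells given both antibodies, 3 without replicate 3 and 2 without WT unstimulated replicate 1), 6 were lower and the median was -0.12. Gzmb, encoding granzyme B, had 32.3 and 23.4 CPM in WT cells given both antibodies, against 3.60, 2.70 and 6.90 CPM in WT unstimulated cells (2.71 ± 0.47, adjusted p = 0.00104). Prf1, encoding the pore-forming protein perforin, had 72.2 and 60.3 CPM in WT cells given both antibodies and 71.0, 65.8 and 63.2 CPM in WT unstimulated cells, with overlapping groups (-0.01 ± 0.13, adjusted p = 0.958). Serpinb9, which protects the killer cell from its own granzyme B, rose by 1.14 ± 0.23 (adjusted p = 0.00190). Nkg7, a granule protein needed for degranulation (-1.3 ± 0.16, adjusted p = 1.19e-05), and Cst7, a protease inhibitor of granules (-1.3 ± 0.12, adjusted p = 1.00e-06), fell. Effector transcription factor genes were 3 higher and 3 lower of 15 (median 0.09), near the shares of all genes. Tbx21, encoding T-bet, the main activator of Ifng in effector cells, was not called (0.13 ± 0.18, adjusted p = 0.611; -0.65, adjusted p = 0.136 with the GC correction). Zeb2, a driver of terminal effector cells, rose by 1.32 ± 0.31 (adjusted p = 0.00476), and Id2, which supports effector survival, fell by 1.01 (SE 0.14, adjusted p = 3.95e-05). Eomes, the T-bet relative of memory cells, fell by 0.67 (SE 0.18, adjusted p = 0.00899), a call lost without replicate 3 of the WT cells given both antibodies (adjusted p = 0.0804). The rise of Runx3, a CD8 lineage factor, by 0.53 (SE 0.17, adjusted p = 0.0258), was lost with the GC correction (0.10, adjusted p = 0.515). It was also lost without either stimulated library (adjusted p = 0.118 each) and without WT unstimulated replicate 1 (adjusted p = 0.0855) or replicate 2 (adjusted p = 0.0540). The count of effector factors higher was 1 without either stimulated library, WT unstimulated replicate 1 or WT unstimulated replicate 2. The count lower was 1 without replicate 3 of the WT cells given both antibodies.

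**Figure D3:**
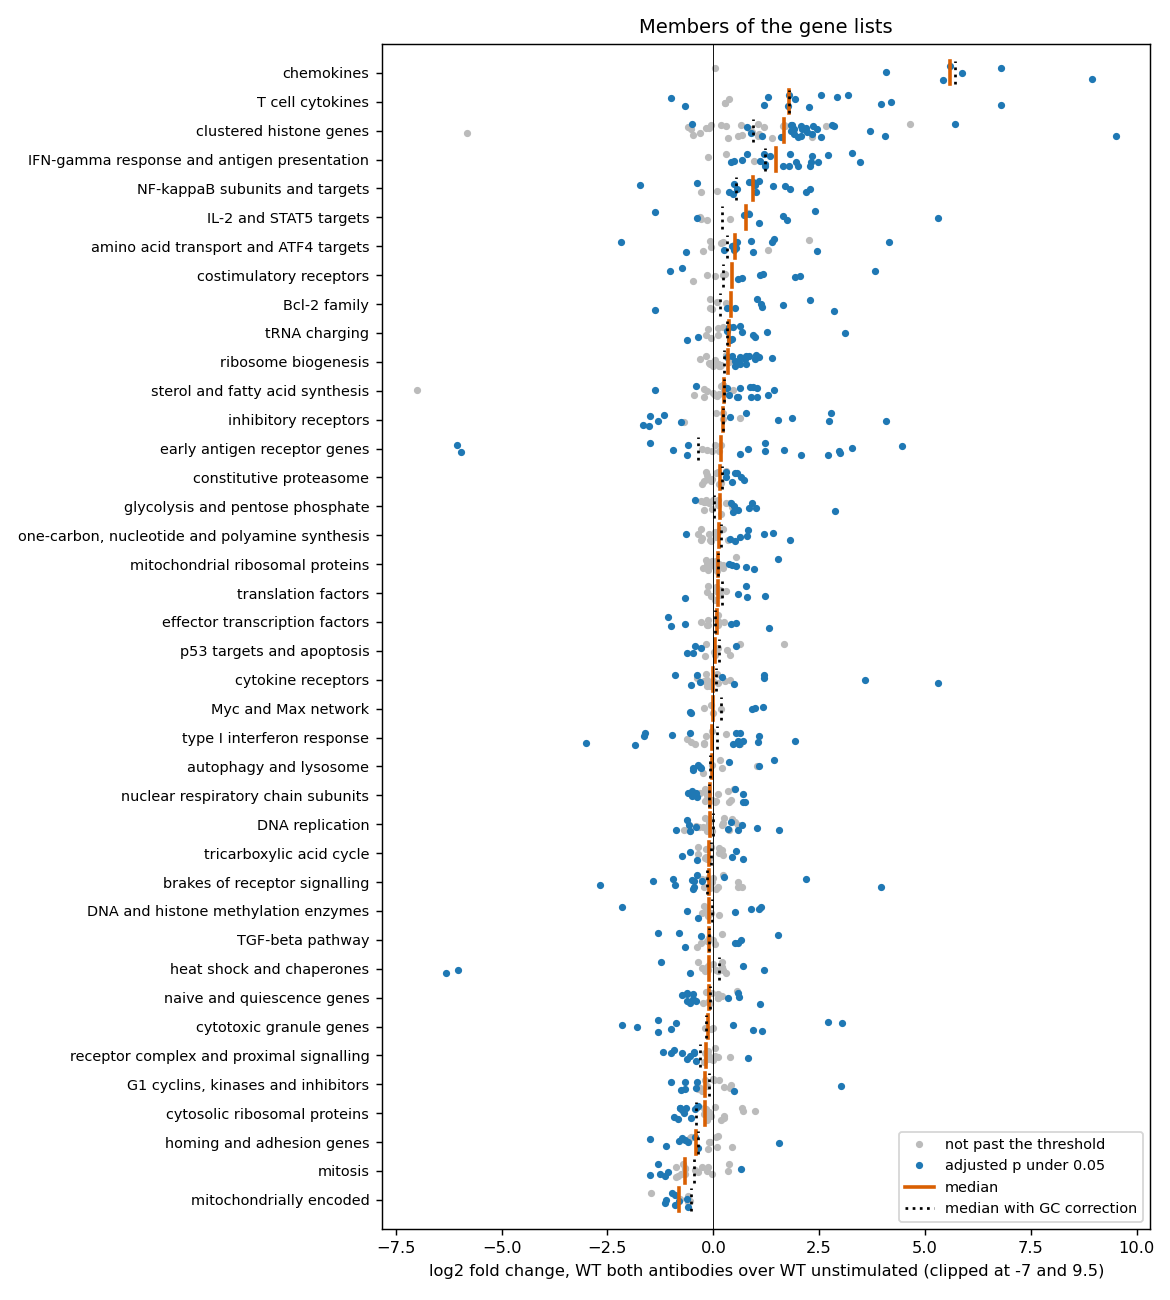
Log2 fold changes of WT cells given both antibodies over WT unstimulated cells (x axis) for the members of each gene list (down the page), 1 point per gene in blue where called and grey otherwise, with the median of each list as an orange line and that with the GC correction dotted. Values outside the axis are drawn at its edge. Chemokines, cytokines, histone genes and the interferon-gamma response lie mostly right of 0, and mitochondrially encoded genes left of it.

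Among biosynthesis genes the changes were smaller. Myc, the transcription factor that drives growth of activated T cells, had 82.9 and 96.2 CPM in WT cells given both antibodies, against 39.9, 39.3 and 40.4 CPM in WT unstimulated cells (1.17 ± 0.14, adjusted p = 9.04e-06). Its network of 9 genes held 3 higher and 2 lower (1 lower without replicate 2 of the WT cells given both antibodies). Of 30 ribosome biogenesis genes 15 were higher and none lower (median 0.35). Noc4l, a nucleolar assembly factor, rose by 1.09 ± 0.13 (adjusted p = 1.09e-05; 0.72 with the GC correction). Ncl, the abundant nucleolar protein nucleolin, was not called (0.15 ± 0.19, adjusted p = 0.569), but was with the GC correction (0.39, adjusted p = 0.0196). Cytosolic ribosomal protein genes went the other way, 11 of 26 lower and none higher (2 higher without KO both-antibody replicate 3; median -0.20), and with the GC correction 18 were lower (-0.40). Of 14 translation factor genes 4 rose and 1 fell. Eif5a, which helps ribosomes through difficult stretches, rose by 0.79 ± 0.11 (adjusted p = 7.49e-05; 0.46 with the GC correction) and Eif4ebp1, the mTOR-controlled inhibitor of cap-dependent translation, by 1.23 ± 0.21 (adjusted p = 4.26e-04). Mitochondrial ribosomal protein genes were 6 higher of 20 and none lower, but 1 was higher without replicate 2 of the WT cells given both antibodies.

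The E-box CACGTG, the letters that Myc and Max are known to bind and which read the same on both strands, was held by 5 of the 24 ribosome biogenesis promoters found (20.8%), beside 11.8% of 10096 genes tested. Mybbp1a, a nucleolar protein that binds Myb, is the called member of smallest adjusted p among them, and its promoter (chr11:72441077-72441376, plus strand) is shown with the match, 40 bases after the start, in capitals.
Mybbp1a promoter: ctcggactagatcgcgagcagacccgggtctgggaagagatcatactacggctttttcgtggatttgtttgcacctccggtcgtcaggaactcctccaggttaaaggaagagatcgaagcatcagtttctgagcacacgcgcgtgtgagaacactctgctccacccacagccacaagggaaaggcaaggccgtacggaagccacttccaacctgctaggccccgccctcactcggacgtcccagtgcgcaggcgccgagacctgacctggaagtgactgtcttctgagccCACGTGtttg
Mybbp1a had 151 and 162 CPM in WT cells given both antibodies, against 93.0, 107 and 101 CPM in WT unstimulated cells (0.64 ± 0.11, adjusted p = 4.60e-04; 0.42 with the GC correction), with no overlap.

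Of 21 genes of amino acid transport and of the stress factor ATF4, 11 rose (6 without replicate 3 of the WT cells given both antibodies) and 2 fell, with a median of 0.51. After GC correction 9 rose and 3 fell (median 0.33). Asns, encoding asparagine synthetase, had 5.45 and 4.21 CPM in WT cells given both antibodies, against 0.292, 0.228 and 0.283 CPM in WT unstimulated cells (4.15 ± 0.36, adjusted p = 4.01e-07). Slc7a5, the light chain of the large neutral amino acid transporter, rose by 0.93 ± 0.14 (adjusted p = 1.30e-04; 0.47, adjusted p = 0.0486 with the GC correction), and Ddit4, an inhibitor of mTORC1, fell by 2.17 (SE 0.22, adjusted p = 1.67e-06). Of 19 tRNA charging enzymes 11 rose and 2 fell (median 0.36), and 12 rose and none fell with the GC correction. There were 6 to 7 higher and none lower when either stimulated library or WT unstimulated replicate 1 was left out, and 1 lower without WT unstimulated replicate 2. Wars, the tryptophan enzyme and a known interferon-gamma target, had a larger fold change than the other members. It had 328 and 334 CPM in WT cells given both antibodies, against 33.9, 38.8 and 43.6 CPM in WT unstimulated cells (3.10 ± 0.14, adjusted p = 8.70e-11). Of 22 one-carbon, nucleotide and polyamine genes 8 rose and 1 fell, and 9 and 3 with the GC correction. The count lower was 2 to 4 when any of KO both-antibody replicates 1 and 3, KO unstimulated replicates 1 and 2 and WT unstimulated replicate 1 was left out. The members of smallest adjusted p were Srm, spermidine synthase (1.80 ± 0.19, adjusted p = 2.41e-06; 0.98 with the GC correction), and Shmt1, which takes carbon units from serine (1.42 ± 0.16, adjusted p = 4.12e-06).

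In glycolysis and the pentose phosphate pathway 8 of 24 genes were higher (4 without replicate 2 and 3 without replicate 3 of the WT cells given both antibodies, and 4 without WT unstimulated replicate 1), 1 was lower and the median was 0.15. These were 7 and 4 after GC correction, with a median of 0.01. Hk2, the inducible hexokinase, had 18.3 and 20.6 CPM in WT cells given both antibodies, against 3.01, 1.98 and 3.00 CPM in WT unstimulated cells (2.88 ± 0.19, adjusted p = 7.32e-09). Aldoa, an aldolase, rose by 0.92 ± 0.15 (adjusted p = 2.03e-04; 0.40 with the GC correction) and Slc2a3, a glucose transporter of lymphocytes, fell by 0.43 (SE 0.09, adjusted p = 0.00199). Slc2a1, the main glucose transporter of activated T cells, rose by 0.49 ± 0.14 (adjusted p = 0.0135), a call lost with the GC correction (0.24, adjusted p = 0.0767). It was also lost without either stimulated library (adjusted p = 0.0943 without replicate 2, 0.0682 without replicate 3) and without WT unstimulated replicate 1 (0.0609). Sterol and fatty acid synthesis genes were 12 higher and 2 lower of 28 (median 0.25). There were 4 higher without replicate 2 and 6 without replicate 3 of the WT cells given both antibodies, and 1 lower without either of these or WT unstimulated replicate 1. Cyp51, lanosterol demethylase, rose (0.94 ± 0.16, adjusted p = 2.69e-04), and Scd2, a fatty acid desaturase, fell by 1.37 (SE 0.15, adjusted p = 4.09e-06). Genes of the tricarboxylic acid cycle (3 higher and 3 lower of 19) and nuclear genes of the respiratory chain (4 higher and 5 lower of 24) had shares near those of all genes. Without replicate 2 of the WT cells given both antibodies 2 respiratory chain genes were higher and none lower. Without replicate 3 there were 2 lower of the respiratory chain and 1 higher of the cycle. Without WT unstimulated replicate 1 there were 2 and 1 higher, and without KO both-antibody replicate 3 there were 5 lower of the cycle.

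Cell cycle genes did not rise as a group. Of 30 DNA replication genes 6 were higher and 5 lower (median -0.08), and 4 and 1 with the GC correction. There were 3 higher and 1 lower without either stimulated library, with 1, 2 and 3 lower without WT unstimulated replicates 1, 2 and 3 in turn. Of 19 genes of the G1 phase 2 were higher and 6 lower, with 1 and 1 without replicate 3 of the WT cells given both antibodies and 3 lower without replicate 2. Cdkn1a, encoding the p21 inhibitor, had 1.66 and 1.27 CPM in WT cells given both antibodies, against 0.162, 0.0380 and 0.396 CPM in WT unstimulated cells (3.01 ± 0.60, adjusted p = 0.00134). Of 22 mitosis genes 5 were lower and 1 higher (median -0.67), but 1 was lower without replicate 2 and none without replicate 3 of the WT cells given both antibodies. Mki67, the proliferation marker Ki-67, had 13.6 and 7.10 CPM in WT cells given both antibodies, against 35.6, 28.5 and 23.3 CPM in WT unstimulated cells (-1.5 ± 0.32, adjusted p = 0.00278). Replicate 3 of the stimulated cells was the lower, and without it the value was -1.10 (adjusted p = 0.0535).

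Of the 30 replication genes 25 had a promoter in the table, and 5 of these (20%) held the E2F motif TTTGGCGC on either strand, beside 1.13% of 10096 genes tested. With the other E2F motif, TTTCCCGC, the counts were 9 of 25 (36%) and 3.49%. Mcm5, a subunit of the replicative helicase, is the called member of smallest adjusted p among them, and its promoter (chr8:75109259-75109558, plus strand) is shown with the match 149 bases before the start in capitals, read there on the opposite strand as GCGCCAAA.
Mcm5 promoter: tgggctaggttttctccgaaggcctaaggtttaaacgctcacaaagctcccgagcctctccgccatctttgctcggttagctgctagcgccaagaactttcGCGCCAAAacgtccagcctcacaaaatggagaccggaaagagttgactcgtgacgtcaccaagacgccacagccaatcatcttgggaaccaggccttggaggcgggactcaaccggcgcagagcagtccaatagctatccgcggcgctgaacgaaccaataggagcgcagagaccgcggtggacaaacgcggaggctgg
Mcm5 had 60 and 58.4 CPM in WT cells given both antibodies, against 36.3, 39.8 and 35.5 CPM in WT unstimulated cells (0.67 ± 0.12, adjusted p = 6.39e-04), and the groups did not overlap. Cdt1, a licensing factor of replication origins, rose by 0.59 ± 0.14 (adjusted p = 0.00419), and its value with the GC correction was -0.02 (adjusted p = 0.917).

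Among heat shock genes 2 of 19 rose and 4 fell (median -0.11), and 4 rose and 4 fell with the GC correction (median 0.13). None was higher without replicate 2 of the WT cells given both antibodies and 1 without replicate 3, WT unstimulated replicate 1 or WT unstimulated replicate 3. Hspa1b, encoding inducible Hsp70, had 0.571 and 0.490 CPM in WT cells given both antibodies, against 28.0, 55.1 and 21.3 CPM in WT unstimulated cells (-6.03 ± 0.74, adjusted p = 4.50e-05). Its near-identical copy Hspa1a changed by -6.32 ± 0.94 (adjusted p = 2.01e-04), with reads that counting may divide between the copies. Dnajb1, an Hsp70 partner, fell by 1.23 (SE 0.13, adjusted p = 3.08e-06). Hspd1, the mitochondrial chaperonin, rose by 0.69 ± 0.22 (adjusted p = 0.0241), a call lost without either stimulated library (adjusted p = 0.0956 without replicate 2, 0.111 without replicate 3), WT unstimulated replicate 1 (0.0649) or replicate 3 (0.0587). Constitutive proteasome genes were 7 higher of 20 and none lower. There were 4 higher without either stimulated library and 1 lower without WT unstimulated replicate 1 or any of KO both-antibody replicates 1 and 3 and KO unstimulated replicates 1 and 3. Of 14 DNA and histone methylation enzymes 4 were higher and 3 lower (1 without either stimulated library). Tet1, which oxidises methylated cytosine, fell, with 9.5 and 10.4 CPM in WT cells given both antibodies, against 55.3, 40 and 38.1 CPM in WT unstimulated cells (-2.16 ± 0.19, adjusted p = 4.62e-07). Dnmt3a, the de novo methyltransferase, rose by 1.08 ± 0.11 (adjusted p = 1.42e-06). In the TGF-beta pathway 4 of 15 were higher and 4 lower, with 2 higher without either stimulated library or WT unstimulated replicate 1. Furin, the protease that matures TGF-beta, rose by 1.53 ± 0.21 (adjusted p = 4.64e-05) and Tgfbr3, a coreceptor, fell by 1.31 (SE 0.12, adjusted p = 4.92e-07). The p53 target and apoptosis genes held 1 higher and 4 lower of 14 (3 and 2 with the GC correction). There were 1, 2 and 1 lower without replicate 2 or 3 of the WT cells given both antibodies or WT unstimulated replicate 2 in turn. There were up to 3 higher without WT unstimulated replicate 3 or KO both-antibody replicate 1 or 3. Autophagy and lysosome genes held 3 higher and 5 lower of 13 (3 and 3 with the GC correction). There were 1 and 2 lower without replicates 2 and 3 of the WT cells given both antibodies, 3 and 2 without WT unstimulated replicates 2 and 3, and 3 without WT anti-CD3 replicate 1 or 3, replicate 1 of the KO cells given anti-CD3, or KO both-antibody replicate 2.

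Many clustered histone genes, whose transcripts mostly lack poly(A) tails, and the RNAs Rpph1 and Rmrp rose in the stimulated libraries. Among other classes of small RNA, snoRNA, snRNA and scaRNA had more genes lower than higher. The miRNA class went the other way, with 3 of 8 genes tested higher, none lower and a median of 1.65. Of 111 snoRNA genes tested 1 was higher and 15 were lower (median -0.35). Of 36 snRNA genes none was higher and 6 were lower (median -0.48). Of 15 scaRNA genes none was higher and 3 were lower (median -0.15). In the snoRNA, snRNA and scaRNA classes the share lower was thus near the 16.3% of all genes. The share higher in them was below the 17.8% of all genes. Values with the GC correction or with a library left out are not given here for the small RNA classes. Clustered histone genes were 26 higher and 1 lower of 55 (median 1.66). There were 20 higher and 4 lower with the GC correction (median 0.93). The count of 26 higher was 7 (and none lower) without replicate 2 and 9 without replicate 3 of the WT cells given both antibodies, 10 without WT unstimulated replicate 1 and 13 without WT unstimulated replicate 2. Hist1h4h, a histone H4 gene, had 32.6 and 31.4 CPM in WT cells given both antibodies, against 1.04, 3.16 and 3.34 CPM in WT unstimulated cells (3.71 ± 0.90, adjusted p = 0.00805). Hist2h2aa2, a histone H2A gene, had 26.8 and 28.1 CPM in WT cells given both antibodies, against 0, 0.912 and 0.792 CPM in WT unstimulated cells (5.70 ± 1.41, adjusted p = 0.00946). Its near-identical copy Hist2h2aa1 had 442 counts in WT cells given both antibodies and 0 in WT unstimulated cells, at least 279-fold higher against a floor of 3 counts over the group. Most alternatives lost its call (adjusted p = 0.0493, and 0.0615 with the GC correction), and the counting may divide reads between the copies. Rpph1, the RNA of ribonuclease P, had 4912 and 4645 CPM in WT cells given both antibodies, against 349, 663 and 692 CPM in WT unstimulated cells (3.07 ± 0.89, adjusted p = 0.0201; 1.60 with the GC correction). Rmrp, the RNA of the related ribonuclease MRP, had 259 and 182 CPM in WT cells given both antibodies, against 5.67, 13.1 and 10.1 CPM in WT unstimulated cells (4.53 ± 1.19, adjusted p = 0.0133). These are values of its entry annotated as a lincRNA. An overlapping entry of the same symbol, annotated as a ribozyme, had 1824 and 1355 CPM in WT cells given both antibodies, against 359, 717 and 629.8 CPM in WT unstimulated cells, and was not called (1.48 ± 0.56, adjusted p = 0.0603). In Hist1h4h, Hist2h2aa2, Rpph1 and Rmrp the stimulated libraries lay far above the unstimulated ones, and WT unstimulated replicate 1 was the lowest. Whether the calls of Hist1h4h, Rpph1 and Rmrp held with a library left out is not given here.

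Signal recognition particle RNAs, together with 7SK, took 9.94% and 11.4% of the counts in WT cells given both antibodies, against 3.98% to 6.05% in WT unstimulated cells and 4.63% to 6.49% in WT cells given anti-CD3 alone. Genes encoded by mitochondrial DNA took 2.85% and 3.06% of the counts in WT cells given both antibodies, against 4.12% to 5.54% in WT unstimulated cells. Those shares count every gene of mitochondrial DNA. The 13 protein-coding ones summed to 9696 and 10212 CPM in WT cells given both antibodies, against 16424 to 20248 CPM in WT unstimulated cells. Of these 13 genes 8 were lower and none higher (median -0.81), with mt-Co1, an oxidase subunit, at -0.90 ± 0.14 (adjusted p = 1.27e-04). There were 4 lower with the GC correction (median -0.53) or without WT unstimulated replicate 1, WT unstimulated replicate 2 or replicate 3 of the WT cells given both antibodies (3 without replicate 2). How far the make-up of the libraries contributes to the histone and short RNA values was not tested.

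**Figure D4:**
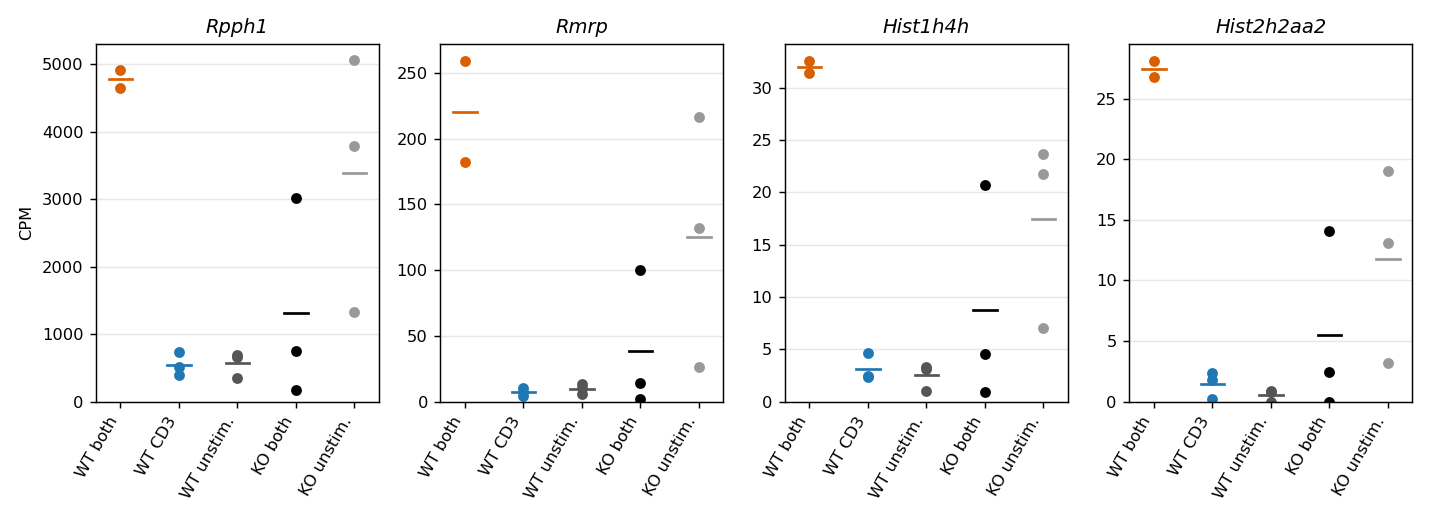
Levels (CPM, linear axis from 0) of Rpph1, Rmrp, Hist1h4h and Hist2h2aa2 in each library, 1 point per library and a short line for the group mean. Both libraries of WT cells given both antibodies lie above all WT unstimulated and WT anti-CD3 libraries, and the KO libraries spread widely.

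The response was then set beside that of WT cells given anti-CD3 alone, to ask where CD28 antibody made a difference. Both responses use the same WT unstimulated libraries, so the stimulated groups were compared directly. With all 17 libraries in the fit no gene was called in either direction (0%), while 3506 genes (21.6%) had an unadjusted p under 0.05. The count differed with the libraries fitted and with the method. With only the groups compared 2551 genes were higher (16.6% of 15374) and 2229 lower (14.5%). DESeq2 called 408 higher and 109 lower, and limma voom with quality weights 3213 and 2845. Ifng had 69.5 and 58.6 CPM with both antibodies, against 97.4, 85.5 and 87.7 CPM with anti-CD3 alone, a log2 difference of -0.49 ± 0.33 (adjusted p = 0.386). Il2 had 3.12 and 2.45 CPM with both antibodies, against 1.76, 3.51 and 2.59 CPM with anti-CD3 alone (0.05 ± 0.52, adjusted p = 0.967). Ifng was lower in both libraries with both antibodies than in any with anti-CD3 alone, whereas the Il2 values overlapped. Xcl1 had 604 and 524 CPM with both antibodies, against 806, 797 and 740.1 CPM with anti-CD3 alone (-0.47 ± 0.17, adjusted p = 0.165). Gzmb had 32.3 and 23.4 CPM with both antibodies, against 50.4, 43.9 and 56.5 CPM with anti-CD3 alone (-0.85 ± 0.44, adjusted p = 0.272). Myc lay on the other side, with 82.9 and 96.2 CPM with both antibodies against 68.5, 63.9 and 63.2 CPM with anti-CD3 alone (0.46 ± 0.14, adjusted p = 0.147). None of these differences passed the threshold in the fit of all libraries, which does not show that the responses were alike. With only the groups compared, Ifng (adjusted p = 6.43e-04), Xcl1 (1.69e-04), Gzmb (0.00613) and Myc (4.20e-04) passed it with the same direction, and Il2 passed it under none of the alternatives.

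By list, the medians of both antibodies over anti-CD3 alone were -0.12 for chemokines, 0.03 for cytokines, -0.10 for the interferon-gamma response, 0.28 for NF-kappaB genes and -0.29 for heat shock genes, beside -0.01 for all genes. Histone genes had the widest median, 1.93, in the fit of all libraries, and with only the groups compared 43 of 51 were higher. Rpph1 had 4912 and 4645 CPM with both antibodies, against 740.1, 514 and 387 CPM with anti-CD3 alone (3.13 ± 0.89, adjusted p = 0.149; 0.0107 with only the groups compared). The GC trend of the libraries differed here too, at 0.51 and 0.54 with both antibodies and -0.39 to -0.11 with anti-CD3 alone. With the GC correction 3 genes were higher and 1 lower.

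**Figure D5:**
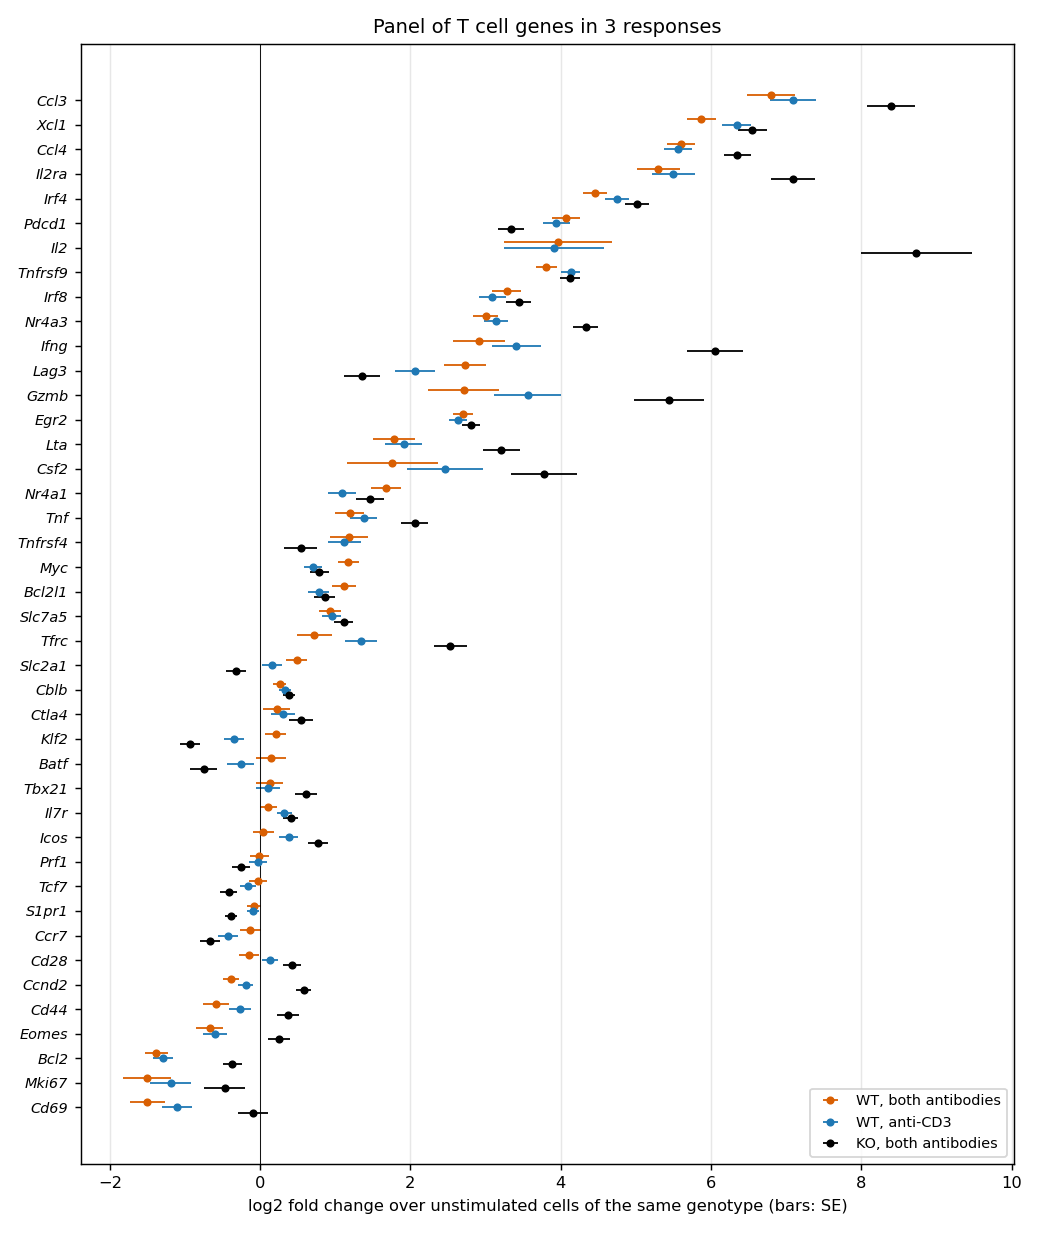
Log2 fold changes over unstimulated cells of the same genotype for genes of the panel of T cell genes, in WT cells given both antibodies, WT cells given anti-CD3 alone and KO cells given both antibodies, with SE as bars. Ifng, Il2 and Gzmb lie further right in KO cells than in either WT response.

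The last comparison set the response of KO cells to the same stimulus beside that of WT cells. Cblb itself had 80.2, 82.8 and 95.9 CPM in KO cells given both antibodies, against 178 and 179 CPM in WT cells given both antibodies, and 66.2, 68.8 and 63.9 CPM in KO unstimulated cells. Reads from the gene were fewer in the KO libraries but not absent. The response of KO cells minus that of WT cells was called higher for 2972 genes (18.3%) and lower for 3117 (19.2%), and by at least 2-fold for 710 (4.37%) and 1777 (10.9%). With scaling by library totals the split was 3668 higher and 2494 lower, and the median of all genes was 0.14. The GC trend was widest among the KO libraries (-1.15 in KO both-antibody replicate 3 and 1.15 in KO unstimulated replicate 2). With the GC correction 1316 genes were higher and 1184 lower. Without those 2 libraries 1738 were higher and 2035 lower.

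Ifng had 233, 502 and 674 CPM in KO cells given both antibodies and 6.18, 7.24 and 7.76 CPM in KO unstimulated cells, a log2 response of 6.05 ± 0.37 beside 2.91 ± 0.35 in WT cells. The difference of the responses was 3.14 ± 0.48 (adjusted p = 0.00339), and 2.56 with the GC correction (adjusted p = 0.00748), with every KO stimulated library above both WT stimulated ones. Il2 had 6.38, 16.4 and 25.1 CPM in KO cells given both antibodies, against 3.12 and 2.45 CPM in WT cells given both antibodies. The difference of responses was 4.77 ± 1.34 (adjusted p = 0.0128). That value takes in the unstimulated levels of both genotypes too, so it is not a difference of the stimulated levels alone. Unstimulated levels were near 0 in WT cells, and those of KO cells are not given here. Without KO unstimulated replicate 2 the difference was 3.97. The difference of 4.77 missed the threshold with the GC correction (3.88, adjusted p = 0.0574). The Il2 difference also missed it with limma voom (0.0855), with no filter (0.0525), without the 2 KO libraries of extreme GC trend (0.148), without KO unstimulated replicate 2 (0.102) and without WT unstimulated replicate 2 (0.206). Gzmb had 110.4, 197 and 311 CPM in KO cells given both antibodies, against 32.3 and 23.4 CPM in WT cells given both antibodies (difference of responses 2.73 ± 0.65, adjusted p = 0.00745). The Gzmb difference missed the threshold without the 2 KO libraries of extreme GC trend (2.02, adjusted p = 0.0618). Tfrc (1.81 ± 0.32, adjusted p = 0.00367; 1.09 with the GC correction) and Il2ra (1.80 ± 0.43, adjusted p = 0.00605) also had a higher response in KO cells than in WT cells. Pdcd1 went the other way, with a lower response in KO cells (-0.73 ± 0.26, adjusted p = 0.0354), but its value was 0.00 with the GC correction, and the replicate block ended the call (-0.64, adjusted p = 0.0597).

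Genes of the interferon-gamma response moved differently from Ifng. The response was lower in KO cells than in WT cells for 14 of 24 genes and higher for 1. The median difference was -0.52 (15 lower, none higher and -0.61 with the GC correction). In the type I interferon list it was lower in KO cells for 12 of 25 genes and higher for 1 (6 and none with the GC correction). NF-kappaB genes had a lower response in KO cells for 11 of 19 genes and a higher one for 3, counts that were 3 and 1 with the GC correction. Heat shock genes had a higher response in KO cells for 15 of 19 genes and a lower one for none (13 and none with the GC correction), with a median difference of 0.98. Histone genes had a lower response in KO cells for 40 of 55 genes (25 with the GC correction). Their levels and those of short RNAs spread widely among the KO libraries. Rpph1 had 3016, 743 and 174 CPM in KO cells given both antibodies and 3786, 5055 and 1322 CPM in KO unstimulated cells.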

How the data were processed

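Ribosomal RNA was removed from the RNA of purified CD8+ T cells, which was sequenced as paired reads of 100 bases on a NextSeq 500, per the labels' protocols. Reads were aligned with STAR 2.5.2 to GRCm38 (mm10) and quantified with RSEM 1.3.0, per the submitters' processing notes. The authors deposited whole-number counts per gene. The sources used here do not give their rounding, annotation or use of strand, so overlapping and antisense genes cannot be told apart. Symbols came from the GENCODE M21 annotation of GRCm38 for 53650 of 53679 gene IDs, and 24955 IDs had 0 counts in all libraries.

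Counts of all 17 libraries in 6 groups were fitted together with edgeR 4.0.16 (R 4.3.3) after its filter on low counts (16246 genes), with TMM scaling, a robust quasi-likelihood F-test and Benjamini-Hochberg adjustment at 0.05. Pooling all groups gives the pair of libraries with both antibodies a shared estimate of spread (common biological coefficient of variation 0.153). SE is the size of the log2 fold change divided by the square root of F. CPM are counts relative to the TMM-scaled library total. Totals ran from 16635826 to 160059285 counts, and counting intervals and floors cover counting error only. The test was also run on simulated counts, with an outcome that is not given here.

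Alternatives were other scalings, DESeq2 1.42.0, limma 3.58.1 (voom), other filters, only the groups compared, a replicate block, a GC correction (loess of log2 CPM on GC content per library, span 0.3) and leaving out each library. No pair among the 8 WT libraries agreed within sampling noise. Named genes were a panel of T cell genes, the 8 highest and 8 lowest called genes (mean log2 CPM 2 or more) with no overlap between groups, and per list up to 2 called members per direction by smallest adjusted p, with members not called added. The members and lists were chosen with earlier results of these data known. Values of a few genes are not reported here.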

Additional observations from a re-analysis of the deposited data

Results flagged for a closer look

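The response to both antibodies differed between KO and WT cells by edgeR's quasi-likelihood test of the interaction (Benjamini-Hochberg adjusted over all genes) for the 33 named genes below, each given as the log2 response of KO cells minus that of WT cells with its SE. The trend of the libraries with GC content was widest among the KO libraries.

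Among cytokine and chemokine genes the difference was 3.14 ± 0.48 for Ifng (adjusted p = 0.00339; 2.56 and 0.00748 with the GC correction), 4.77 ± 1.34 for Il2 (0.0128; 3.88 and 0.0574), 0.87 ± 0.26 for Tnf (0.0161; 1.19 and 0.0166) and 1.42 ± 0.37 for Lta (0.00869; 2.38 and 0.0192). It was 2.02 ± 0.78 for Csf2 (0.0498; 1.58 and 0.145), 0.68 ± 0.24 for Xcl1 (0.0315; 0.37 and 0.235), 1.59 ± 0.45 for Ccl3 (0.0126; 1.31 and 0.0822), 0.75 ± 0.23 for Ccl4 (0.0188; 0.75 and 0.0427) and 2.71 ± 0.78 for Ccl9 (0.0161; 2.10 and 0.113). These 9 were named by the panel or by size. Over the whole lists the response was higher in KO cells for 7 and lower for 2 of 17 T cell cytokines, and higher for 4 and lower for 1 of 7 chemokines. Of the 9, Ifng, Tnf, Lta and Ccl4 kept an adjusted p under the threshold with the GC correction.

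Of growth, survival and surface genes, the difference was 2.73 ± 0.65 for Gzmb (adjusted p = 0.00745), 1.80 ± 0.43 for Il2ra (0.00605), 1.81 ± 0.32 for Tfrc (0.00367), 0.97 ± 0.15 for Ccnd2 (0.00339), 1.01 ± 0.19 for Bcl2 (0.00368), 0.96 ± 0.22 for Cd44 (0.00505), 1.33 ± 0.24 for Nr4a3 (0.00339), 0.92 ± 0.24 for Eomes (0.00745) and 3.18 ± 0.96 for Hspa1b (0.0189), and all of these stayed past the threshold with the GC correction (2.43, 1.33, 1.09, 0.76, 0.72, 0.52, 1.22, 1.52 and 4.42 in that order). It was 1.41 ± 0.30 for Cd69 (0.00437), 0.57 ± 0.21 for Irf4 (0.0425), 0.73 ± 0.19 for Icos (0.00820) and 0.57 ± 0.17 for Cd28 (0.0170), none of which stayed past it (values 0.50, 0.40, 0.21 and -0.04).

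The response was lower in KO cells for Batf (-0.89 ± 0.27, adjusted p = 0.0154), Klf2 (-1.14 ± 0.19, 0.00339), Ccr7 (-0.53 ± 0.19, 0.0389), Pdcd1 (-0.73 ± 0.26, 0.0354), Lag3 (-1.38 ± 0.37, 0.00932) and Slc2a1 (-0.82 ± 0.19, 0.00515), and none of these calls held with the GC correction (0.09, 0.64, -0.06, 0.00, 0.18 and -0.26). It was also lower for Hist2h2aa2 (-6.83 ± 1.76, 0.0114), Rmrp (its lincRNA entry, -6.23 ± 1.56, 0.0102), Snora78 (-4.82 ± 1.45, 0.0227), Hist1h4h (-4.74 ± 1.17, 0.00929) and Rpph1 (-4.44 ± 1.19, 0.0134), with GC-corrected values of -5.04, -4.54, -3.17, -3.74 and -2.45 in that order. Snora78 lost its call with that correction (adjusted p = 0.0589) and with the replicate block (-5.08, adjusted p = 0.0559), and the block also ended the call of Pdcd1 (-0.64, adjusted p = 0.0597). When only the groups compared were fitted, Csf2, Xcl1, Irf4, Ccr7, Cd28, Hspa1b and Snora78 missed the threshold (adjusted p = 0.0869, 0.0807, 0.0785, 0.0844, 0.0598, 0.0531 and 0.0582). Of the 33 genes, 13 kept direction and call under all 27 alternatives: Ifng, Lta, Il2ra, Cd44, Nr4a3, Eomes, Tfrc, Ccnd2, Bcl2, Hist2h2aa2, Rmrp, Hist1h4h and Rpph1. Gzmb lost its call without the 2 KO libraries of extreme GC trend (adjusted p = 0.0618). Besides the fit of only the groups compared, Hspa1b lost it with no filter (0.0692) and without KO both-antibody replicate 1 (0.0745) or 3 (0.0700) or replicate 2 (0.0691) or 3 (0.0794) of the WT cells given both antibodies. Csf2 lost its call under 17 alternatives, Irf4 under 13, Ccr7 under 12, Pdcd1 under 11 and Xcl1 under 9. Tnf lost it without replicate 2 (0.0583) or 3 (0.0555) of the WT cells given both antibodies and without the 2 KO libraries of extreme GC trend (0.0535).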

How the results depend on the processing

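For WT cells given both antibodies over WT unstimulated cells, no alternative of the 27 ended, made or turned a call for 132 of 173 named genes. Of these Tbx21, Cd28 and Prf1, not called in any, changed sign under at least 1 alternative. With the GC correction the direction reversed for Batf (-0.35), Klf2 (-0.80), Cdt1 (-0.02), Psma7 (-0.07), Tbx21 (-0.65) and Cd28 (0.11), and 824 genes were higher by at least 2-fold. The GC correction and the uncorrected fit shared 69.2% of the uncorrected calls, and 11 genes were called in opposite directions. limma voom called 4268 genes higher and 4157 lower. With only the groups compared 6916 genes were called in either direction, and 7066 without the 2 KO libraries of extreme GC trend. The fit of all libraries called 5538. Leaving out each library gave 1462 to 3377 genes higher, 1250 to 3084 lower, and 901 to 1346 and 417 to 655 by at least 2-fold.

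For both antibodies over anti-CD3 alone, genes higher and lower (in brackets those by at least 2-fold) were 408 and 109 (124 and 6) with DESeq2, 3213 and 2845 (560 and 52) with limma voom, 22 and 2 (15 and 2) with no filter, 2551 and 2229 (372 and 31) with only the groups compared, 3 and 1 (1 and 0) with the GC correction, and 1611 and 1321 (307 and 20) without the 2 KO libraries of extreme GC trend. Leaving out each library gave 0 to 1117 and 0 to 317 (0 to 283 and 0 to 8), with 913 and 274 without KO both-antibody replicate 1, 1117 and 317 without KO both-antibody replicate 3, and 1 and 0 without WT anti-CD3 replicate 3. Scaling by library totals moved the median of all genes to -0.13.

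For the response of KO cells minus that of WT cells, genes higher and lower were 1905 and 2454 with only the groups compared, 1316 and 1184 (318 and 252) with the GC correction and 1738 and 2035 (178 and 826) without the 2 KO libraries of extreme GC trend. The GC correction turned the sign of the difference for Batf (0.09), Klf2 (0.64), Lag3 (0.18) and Cd28 (-0.04), and was 0.00 for Pdcd1. Leaving out each library gave 1608 to 3659 and 2207 to 3723 (305 to 1132 and 1246 to 2330). The cause of these shifts was not tested.

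Deviations from the group means correlated at 0.16 and 0.11 for same-numbered WT libraries and at -0.16 to 0.04 for other pairs. The 2 libraries given both antibodies deviate from their mean as mirror images, so these values cannot decide whether the samples are paired. The labels do not say either, and the numbers were not taken as pairing the samples. With the replicate number as a block, 2496 genes were higher and 2326 lower in WT cells given both antibodies than in WT unstimulated cells, 0 differed from anti-CD3 alone, and the responses of KO and WT cells differed for 2691 higher and 2826 lower. Among named genes the block ended the calls of Farsb, Hist2h2aa1, Ier3 and Nsdhl in WT cells, and of Snora78 and Pdcd1 between KO and WT responses. With 2 libraries given both antibodies, leaving out either leaves a lone sample that is assumed to vary like the other groups. Genes of few counts, such as Il2 with 110 and 13 counts in WT cells given both antibodies and WT unstimulated cells, are limited by depth.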
